A study of Mus musculus with 10 samples.

Results

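The platelet-derived growth factor (PDGF) ligands Pdgfa, Pdgfb, Pdgfc and Pdgfd, the receptors Pdgfra and Pdgfrb, and Cspg4, which encodes the NG2 proteoglycan of pericytes, were examined in the lungs of mice with increased pulmonary flow (IPF) and of sham-operated mice. The 7 genes were taken by name from the 54532 genes of the deposited expression table, and all 7 were among the 20448 genes with a mean level high enough to be tested. In IPF lungs Pdgfra mRNA was 1.28-fold as high as in sham lungs (57.4 ± 3.95 against 45 ± 4.3 FPKM, mean ± SD, n = 5 per group), and Cspg4 mRNA was 0.74-fold as high (3.18 ± 0.318 against 4.3 ± 0.366 FPKM). Both differences passed the test across all genes, and for both genes no IPF lung overlapped a sham lung. Pdgfrb and the 4 ligands did not pass. FPKM is the number of fragments of a gene scaled by its transcript length and by the size of the library.

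The mice were wild type, and the paper's methods name the strain C57BL/6J and pups of both sexes. At P7 (postnatal day 7) the IPF pups received an aortocaval fistula, in which a needle puncture opened a passage from the abdominal aorta into the neighbouring vena cava and so raised venous return and blood flow through the lungs, while the sham pups had the laparotomy without the puncture. Both groups were anaesthetised with isoflurane, returned to their mother and sampled at P30, when whole-lung RNA was sequenced from 5 mice of each group. The comparison is of lungs after the fistula with sham lungs, and the sequenced groups also differed in sex-linked and clock genes, as given below.

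PDGFs are secreted as dimers that bring receptor chains together in pairs. PDGF-A and PDGF-C chains act mainly through PDGFRα, PDGF-B binds both receptors, and PDGF-D acts mainly through PDGFRβ. In the developing lung, PDGF-A from epithelium acts on PDGFRα-positive fibroblasts and myofibroblasts, which form the alveolar septa. PDGF-B from endothelium recruits pericytes, the cells that wrap capillaries and carry PDGFRβ and NG2, and the same axis acts on smooth muscle of the pulmonary arteries. In whole tissue, fewer cells of a type and less mRNA per cell cannot be told apart.

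Samples contained 15483046 to 19026843 reads on genes, and samples of one group differed far beyond counting error (chi-square per degree of freedom 4.78 to 37.3), so none was a copy of another. Nothing in the labels tells litters or surgical sessions apart, so p-values measure the spread between these lungs. Lung markers were abundant, with a summed level of 12423 to 19890 FPKM for 6 alveolar type 2 genes. All 5 IPF lungs expressed Xist (26.8 to 43.2 FPKM) and had no read of Ddx3y on the Y chromosome, whereas the 5 sham lungs had 14.3 to 21.4 FPKM of Ddx3y and at most 0.0767 FPKM of Xist. Of 13 circadian clock genes 12 were called (limma adjusted p under 0.05), against 5.85% of all genes tested. Dbp was at 2.26 ± 0.707 FPKM in IPF lungs against 26.4 ± 2.61 in sham lungs (n = 5 per group). On the sex-chromosome genes, all 5 IPF lungs had the female pattern and all 5 sham lungs the male pattern, although the methods name pups of both sexes. Surgery, sex and clock phase therefore cannot be told apart in any difference given here. Several lungs stood apart in other ways. Sham 1 had the lowest mean rank correlation with the other lungs (0.912, others 0.929 to 0.932) and the most genes above 0 (25486, others 22475 to 23575). Its summed alveolar type 2 genes were the lowest (12423 FPKM, others 16494 to 19890), and it was the highest sham lung for Pdgfra, Pdgfrb and Cspg4. IPF 3 had the highest summed ciliated airway genes (105 FPKM, others 27.6 to 60.5), and IPF 5 had the highest summed neutrophil genes (295 FPKM, others 14.5 to 72.7). IPF 4 and sham 3 had the highest summed liver, heart and skeletal muscle genes (87.8 and 74.1 FPKM, others 1.06 to 4.59), which came from heart genes such as Myl7 (63.9 and 55.2 FPKM, others 0.206 to 2.85), while liver Alb was at most 0.745 FPKM in every lung.

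FPKM is scaled by gene length, so levels can be set side by side between genes. Pdgfrb, the receptor of pericytes and smooth muscle, had the highest mean level over the 10 lungs (56.6 FPKM), followed by Pdgfra (51.2), Pdgfb (49.2), Pdgfa (28.1), Pdgfd (10.5), Cspg4 (3.74) and Pdgfc (0.532). The first 3 genes were not separated beyond their spread. Pdgfrb exceeded Pdgfra in 5 of 5 sham lungs but in only 2 of 5 IPF lungs, and Pdgfra exceeded Pdgfb in 7 of 10 lungs. From Pdgfb downwards each gene exceeded the next in all 10 lungs. Among the ligands, Pdgfb supplied 56.2 ± 1.78% of the summed ligand FPKM in IPF lungs and 55.2 ± 2.91% in sham lungs, Pdgfa 31.1 ± 3.01% and 32.3 ± 2.39%, Pdgfd 12.1 ± 1.75% and 11.8 ± 0.99%, and Pdgfc less than 1% in every lung (n = 5 per group).

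**Figure D1:**
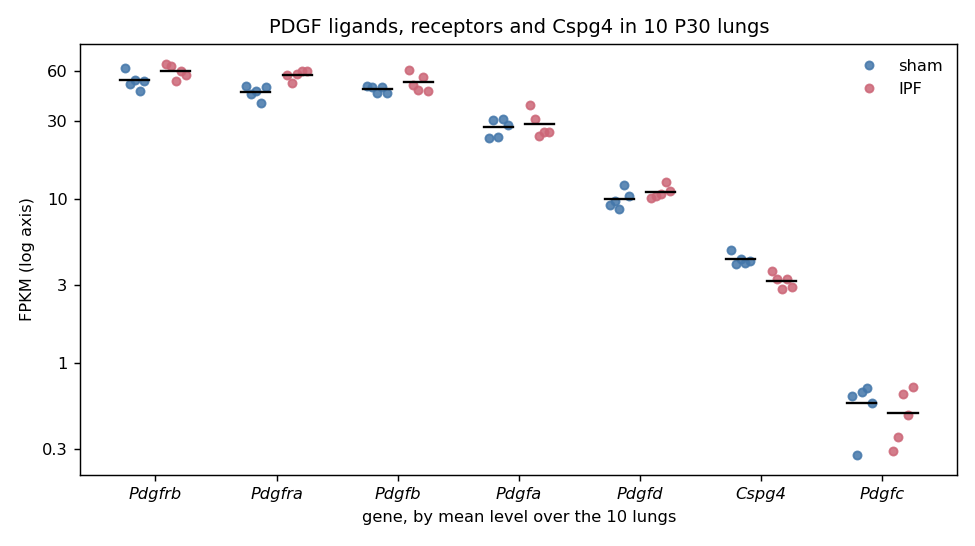
FPKM (logarithmic axis) of the 7 genes in 5 sham and 5 IPF lungs, ordered by mean level. Points are lungs and lines are group means. The groups separate for Pdgfra and Cspg4, and Pdgfc lies near 0.5 FPKM, far below the other genes.

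Genes were called at an adjusted p under 0.05 in limma (Benjamini-Hochberg over the 20448 genes). By this rule 2 of the 7 genes were called, against 5.85% of all genes tested. Pdgfra was the 1 member called higher in IPF, against 3.71% of all genes, and Cspg4 the 1 called lower, against 2.14%. Neither reached the second limit used by the study, an absolute log2 fold change above 1, which 1.14% of all genes passed together with the first. The values of the 2 groups did not overlap for these same 2 members, against 7.29% of all genes. The median log2 fold change of all genes tested was 0.0016.

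**Figure D2:**
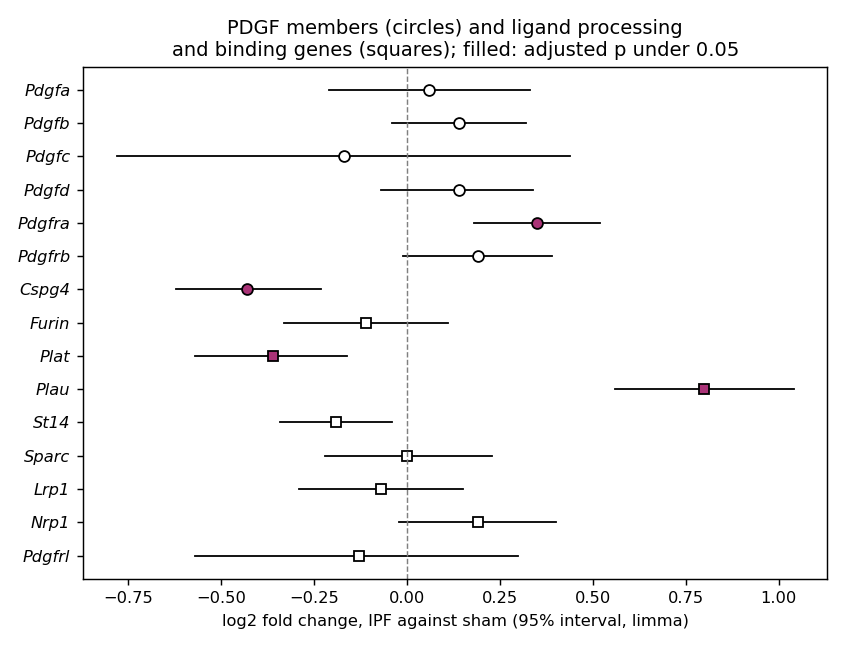
Log2 fold change (IPF against sham, on the scale of log2(FPKM + 0.1)) with its 95% interval from limma for the 7 genes (circles) and for 8 genes that process or bind PDGFs (squares). Filled symbols mark an adjusted p under 0.05, which Pdgfra, Cspg4, Plau and Plat reached.

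None of the 4 ligands was called by limma, and 0 had an unadjusted p under 0.05. Pdgfb (ENSMUSG00000000489, chr15:79995874-80014977, minus strand, GRCm38), the endothelial ligand for pericytes, was measured at 60.8, 49.8, 46.4, 55.8 and 45.9 FPKM in IPF lungs 1 to 5 and at 48.8, 48.1, 44.3, 48 and 44.1 FPKM in sham lungs 1 to 5. IPF 1, 2 and 4 lay above every sham lung, and IPF 3 and 5 lay within the sham range. The log2 difference was 0.14 (SE 0.08, 95% interval -0.04 to 0.32, limma adjusted p = 0.377, exact two-sided permutation p = 0.143). In linear terms the interval ran from 0.97-fold to 1.25-fold, and the log2 difference was 0.08 without IPF 1. Summed endothelial marker genes were higher in every IPF lung (1503 to 1713 FPKM) than in any sham lung (1330 to 1420 FPKM), but without Cldn5 the sums overlapped (1066 to 1266 against 1043 to 1093 FPKM), and 1 of 11 of them was called, Cldn5, which encodes claudin-5 of endothelial tight junctions (451 ± 20.7 against 309 ± 42.8 FPKM, log2 difference 0.56, SE 0.11, limma adjusted p = 0.0107), against 5.85% of all genes. The count was 2 with voom, with the replicate block, with a mean of at least 1 FPKM and with scaling by total reads. Their part in the Pdgfb values was not tested.

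Pdgfa (ENSMUSG00000025856, chr5:138976014-138997370, minus strand), the ligand of PDGFRα, was at 37.3, 30.9, 24.3, 25.6 and 25.8 FPKM in IPF lungs 1 to 5 and at 23.7, 30.3, 24, 30.8 and 28.2 FPKM in sham lungs 1 to 5. IPF 1 was the highest, IPF 2 stood just above the top sham lung, and the other lungs were interleaved. The log2 difference of 0.06 (SE 0.12, 95% interval -0.21 to 0.33, limma adjusted p = 0.847) became -0.04 when IPF 1 was left out. An antisense gene, 6330403L08Rik, overlaps Pdgfa and held 256 reads on average, against 1204 to 1979 for Pdgfa. The use of strand in the counting is not given in the sources used here, so some reads may belong to either gene.

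Pdgfd (ENSMUSG00000032006, chr9:6168584-6378850, plus strand), which encodes a latent ligand activated by proteolysis, ranged from 10.2 to 12.7 FPKM in IPF lungs and from 8.75 to 12.1 FPKM in sham lungs. The medians were 10.7 and 9.71 FPKM, the groups overlapped, and the log2 difference was 0.14 (SE 0.09, 95% interval -0.07 to 0.34, limma adjusted p = 0.46). Pdgfc (ENSMUSG00000028019, chr3:81036416-81214040, plus strand), the other latent ligand, rested on only 25 to 64 reads per lung. Its levels ran from 0.289 to 0.711 FPKM in IPF lungs and from 0.274 to 0.708 FPKM in sham lungs. These ranges almost coincided, and the interval of its log2 difference (-0.78 to 0.44 around -0.17, limma adjusted p = 0.79) was the widest of the 7, from 0.58-fold to 1.35-fold. The estimate ran from -0.37 without sham 2 to -0.03 without IPF 1. For Pdgfd it ran from 0.09 without IPF 4 or sham 3 to 0.21 without sham 4.

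Pdgfra (ENSMUSG00000029231, chr5:75152292-75198215, plus strand), the receptor of alveolar fibroblasts and myofibroblasts, was measured at 57.4, 50.8, 57.8, 60.3 and 60.7 FPKM in IPF lungs 1 to 5. The sham lungs gave 49, 43.9, 45.4, 38.3 and 48.4 FPKM. The lowest IPF lung, IPF 2, stood above the highest sham lung, sham 1, by less than 2 FPKM, while IPF 1, 3, 4 and 5 were well apart from all sham lungs. The log2 difference was 0.35 (SE 0.08, 95% interval 0.18 to 0.52, limma adjusted p = 0.0212), a 1.28-fold level with an interval of 1.14 to 1.44. The exact two-sided permutation p was 0.00794, the smallest that 5 against 5 lungs can give. Each value rested on 6392 to 11022 reads. The adjusted p rose to 0.0599 without IPF 4 and to 0.0529 without sham 2, with log2 differences of 0.34 and 0.35. Only short or sparse genes overlap Pdgfra, with at most 3.7 reads on average.

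**Figure D3:**
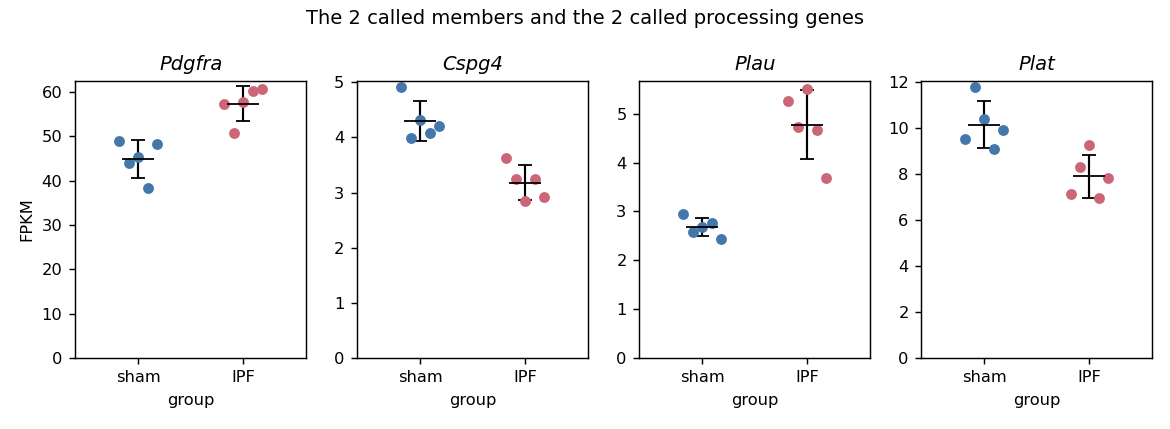
FPKM of Pdgfra, Cspg4, Plau and Plat in each sham and IPF lung (linear axes from 0). Points are lungs, horizontal marks are group means and bars are 1 SD (n = 5 per group). Pdgfra and Plau lie higher and Cspg4 lower in all IPF lungs, whereas the highest IPF lung for Plat (9.26 FPKM) lies within the sham range.

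Since Pdgfra and Cspg4 were the called members and moved in opposite directions, the 250 bases before their RefSeq start sites are shown (GRCm38.p6, both on the plus strand, 5′ to 3′). RefSeq promoters were matched for 5 of the 7 genes. Capitals mark Smad boxes (CAGAC or its reverse complement GTCTG), bound by TGF-β effectors, and GC boxes (GGGCGG or CCGCCC), bound by Sp1. Both strands were searched, and no marked motifs overlap. The windows are chr5:75152001-75152250 for Pdgfra, 54.4% G or C, and chr9:56864854-56865103 for Cspg4, 60.4% G or C, against a median of 52.4% over 32851 windows of the same length.
Pdgfra: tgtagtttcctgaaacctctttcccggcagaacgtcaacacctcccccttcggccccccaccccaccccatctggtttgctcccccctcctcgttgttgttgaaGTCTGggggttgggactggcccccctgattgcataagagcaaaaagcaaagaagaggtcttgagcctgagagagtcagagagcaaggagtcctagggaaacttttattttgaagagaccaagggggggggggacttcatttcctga
Cspg4: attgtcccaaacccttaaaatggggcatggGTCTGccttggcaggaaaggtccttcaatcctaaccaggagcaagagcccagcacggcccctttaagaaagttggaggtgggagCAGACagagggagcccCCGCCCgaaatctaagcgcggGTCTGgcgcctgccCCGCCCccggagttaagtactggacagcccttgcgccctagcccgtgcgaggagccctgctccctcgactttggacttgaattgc
The Pdgfra window held 1 Smad box and no GC box. The Cspg4 window held 3 Smad boxes and 2 GC boxes. At least 1 Smad box occurred in 42.2% and at least 1 GC box in 32.7% of all windows. Neither window held a TATA box (TATAAA, 12.4% of windows), a CCAAT box (33.8%), the E-box CACGTG (6.02%), the forkhead motif TGTTTAC (3.17%) or a CArG box (1.47%). These matches describe letters only.

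Cspg4 (ENSMUSG00000032911, chr9:56865033-56899870, plus strand) was at 3.63, 3.25, 2.84, 3.25 and 2.91 FPKM in IPF lungs 1 to 5 and at 4.92, 3.99, 4.32, 4.08 and 4.2 FPKM in sham lungs 1 to 5. Every IPF lung lay below every sham lung, with sham 1 the highest and IPF 3 the lowest. The log2 difference was -0.43 (SE 0.09, 95% interval -0.62 to -0.23, limma adjusted p = 0.0173, exact two-sided permutation p = 0.00794). This corresponds to a 0.74-fold level (interval 0.65 to 0.85), measured on 614 to 967 reads per lung, and no other gene overlaps Cspg4. Leaving out any single lung kept the call, with log2 differences from -0.48 to -0.38 and adjusted p from 0.0187 to 0.0443. With sham 1 and IPF 3 both left out, which was chosen after seeing the data and removes the highest sham and the lowest IPF lung for Cspg4, the log2 difference was -0.34 and the limma adjusted p 0.0556.

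Pdgfrb (ENSMUSG00000024620, chr18:61045150-61085061, plus strand), the receptor of pericytes and smooth muscle, was at 67, 64.9, 52.1, 60.2 and 57.4 FPKM in IPF lungs 1 to 5. In sham lungs 1 to 5 it was at 63.2, 50.3, 52.9, 45.9 and 52.1 FPKM. IPF 1 and 2 lay above all sham lungs, sham 1 lay among the upper IPF lungs, and IPF 3 lay among the sham lungs. The log2 difference of 0.19 (SE 0.09, 95% interval -0.01 to 0.39) did not pass the test (limma adjusted p = 0.286, exact two-sided permutation p = 0.0952). It became 0.31 (adjusted p = 0.0385) with sham 1 and IPF 3 both left out, a choice that by construction raises the difference, since these were the highest sham and the lowest IPF lung for Pdgfrb. On that smaller set the 2 called members were thus Pdgfra and Pdgfrb in place of Pdgfra and Cspg4.

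Pdgfrb and Cspg4, both carried by pericytes, varied together from lung to lung within each group. Of 6 ligand-receptor and receptor pairs, correlated on deviations from the group means over 10 lungs, only Pdgfrb with Cspg4 passed adjustment over the 6 (Pearson r = 0.91, Spearman rho = 0.94, exact within-group permutation p = 0.000486 for each, adjusted p = 0.00292). The r was 0.82 without IPF 3 and sham 1, the lungs farthest from the median of Pdgfrb, and without sham 1 alone it was 0.85 and did not pass adjustment over the 6 pairs (exact permutation p = 0.0142, adjusted p = 0.0852). Pdgfb with its receptor Pdgfrb gave r = 0.48 and rho = 0.60 (exact permutation p = 0.159 and 0.11, adjusted p = 0.238 and 0.165, r = 0.32 without IPF 1 and IPF 5). Pdgfd with Pdgfrb gave r = -0.53 and rho = -0.64, and Pdgfa with Pdgfra gave r = -0.52 and rho = -0.61 (adjusted exact permutation p = 0.238 for r and 0.164 for rho in both pairs). Pdgfc with Pdgfra (r = 0.19, rho = 0.27) and Pdgfra with Pdgfrb (r = 0.34, rho = 0.26) were also not past adjustment. When 1 lung was left out, r ran from 0.04 to 0.60 for Pdgfc with Pdgfra (0.04 without IPF 2, 0.60 without sham 4), from -0.03 to 0.61 for Pdgfra with Pdgfrb (-0.03 without sham 4, 0.61 without IPF 2) and from -0.68 to -0.29 for Pdgfd with Pdgfrb (-0.29 without sham 4). All of these values share library depth and tissue sampling. Over all genes with a mean of at least 1 FPKM, the highest r was 0.96 with Pdgfrb (Tet2, Slc6a8) and 0.94 with Cspg4 (Foxf2, Vps52, Castor2). None of these is on the pericyte list used here, so a high r is not particular to that pair.

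The ratio of Cspg4 to Pdgfrb FPKM within a lung was 0.0542, 0.0501, 0.0545, 0.054 and 0.0507 in IPF lungs 1 to 5 and 0.0778, 0.0793, 0.0816, 0.0887 and 0.0807 in sham lungs 1 to 5. The means were 0.0527 ± 0.00214 and 0.0816 ± 0.00424 (SD, n = 5 per group), with a wide gap between the groups and a narrow spread within each. The ratio was examined because the plot of single lungs showed 2 parallel bands, and it is given without a test. Its gap follows largely from the Cspg4 difference and its narrow spread from the within-group correlation, so it adds no separate result. The ratio of Cspg4 to Pdgfra was 0.0479 to 0.064 in IPF lungs and 0.0869 to 0.106 in sham lungs, a separation fixed by that of the 2 genes themselves. The ratios of Pdgfra to Pdgfrb (0.783 to 1.11 against 0.776 to 0.928), Pdgfrb to Pdgfb (1.08 to 1.3 against 0.957 to 1.29) and Pdgfra to Pdgfa (1.54 to 2.38 against 1.24 to 2.07) overlapped.

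**Figure D4:**
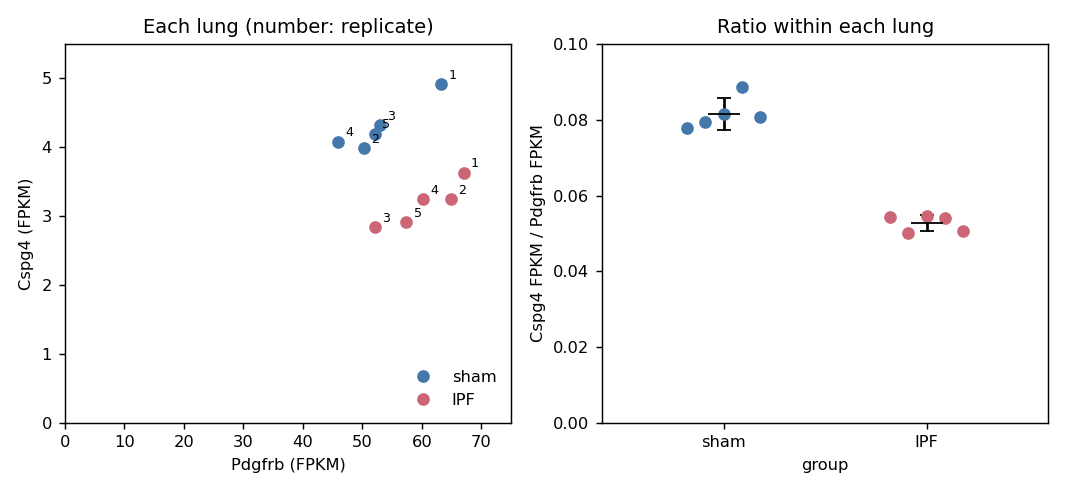
Left, Cspg4 against Pdgfrb (FPKM) in each lung, numbered by replicate. Right, the ratio of Cspg4 to Pdgfrb FPKM in each lung with group means and 1 SD (n = 5 per group). IPF lungs have ratios of 0.0501 to 0.0545 and sham lungs 0.0778 to 0.0887.

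None of the pericyte marker genes was called. Of 18 genes, which include the regulator of G-protein signalling Rgs5, the potassium channel subunits Abcc9 and Kcnj8 and the receptor Notch3, 0 were called by limma or by voom on recovered reads, against 5.85% of all genes, and 4 had an unadjusted limma p under 0.05 (Kcnj8, Cox4i2, Gucy1a1 and Anpep). The count was 1 with the replicate block, 1 without IPF 3, 1 without IPF 5 and 2 without sham 1 and IPF 3. The fitted difference was above 0 for 13 and below 0 for 5, with a median log2 difference of 0.08 and a range of -0.43 to 0.32. The groups overlapped for all 18, against 7.29% of all genes without overlap, a share so low that 0 of 18 lies near it. The gene nearest to the threshold was Kcnj8, with 2.88, 3.44, 4.13, 3.14 and 3.86 FPKM in IPF lungs 1 to 5 and 3.74, 4.42, 6.38, 4.43 and 4.86 FPKM in sham lungs 1 to 5 (log2 difference -0.43, SE 0.14, limma adjusted p = 0.113). Its difference was the same size as that of Cspg4 with a larger error, all 5 IPF lungs lay below the sham mean, and the adjusted p was 0.027 with the replicate block. The other values below were chosen for naming after they were seen. Gucy1a1, a subunit of the nitric oxide receptor, was at 75.7 ± 10.1 against 61.1 ± 7.76 FPKM (log2 difference 0.31, SE 0.11, limma adjusted p = 0.155), and the mitochondrial subunit gene Cox4i2 at 86.9 ± 7.26 against 72.7 ± 10.7 FPKM (0.27, SE 0.10, limma adjusted p = 0.174). The summed level of the 18 genes was 562 to 675 FPKM in IPF lungs and 568 to 608 FPKM in sham lungs, and 0 of the 18 were at 0 in all lungs.

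**Figure D5:**
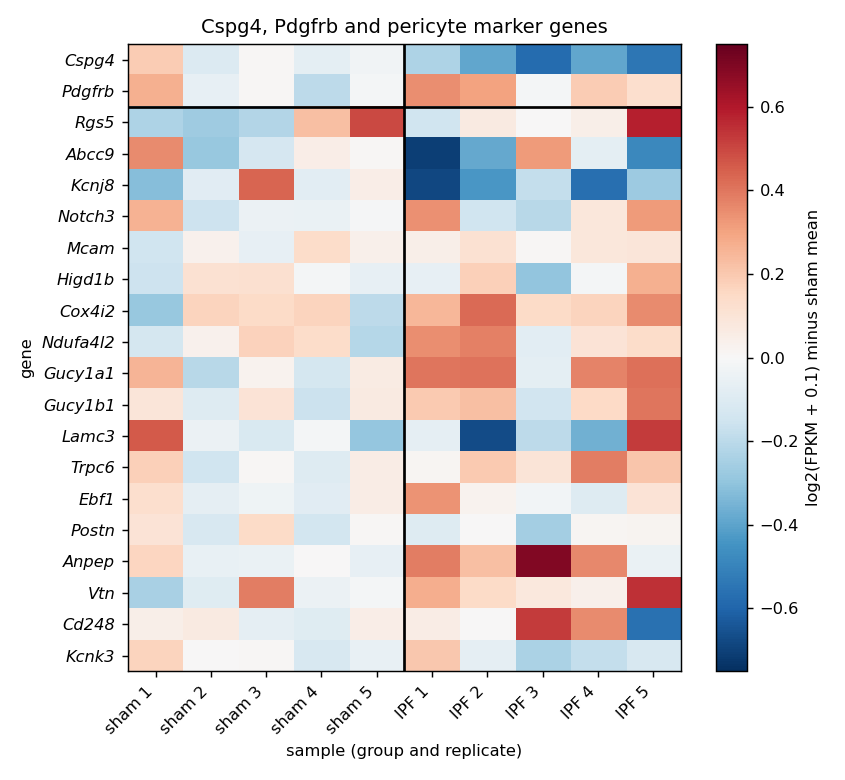
Log2(FPKM + 0.1) of Cspg4, Pdgfrb and 18 pericyte marker genes in each lung, relative to the mean of the sham lungs (red above, blue below). Cspg4 is below the sham mean in all 5 IPF lungs, from -0.58 to -0.23, as is Kcnj8 (-0.68 to -0.18), while Mcam, Cox4i2, Trpc6 and Vtn are above it in all 5 and the other marker genes show both colours.

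Among 8 genes that process or bind PDGFs, 2 were called, against 5.85% of all genes. Plau, which encodes the urokinase plasminogen activator that can activate PDGF-D, was at 5.26, 4.74, 5.52, 4.68 and 3.68 FPKM in IPF lungs 1 to 5 and at 2.95, 2.57, 2.68, 2.76 and 2.44 FPKM in sham lungs 1 to 5. All IPF lungs were above all sham lungs, and the log2 difference was 0.80 (SE 0.11, 95% interval 0.56 to 1.04, limma adjusted p = 0.00215). Plat, the tissue plasminogen activator that can activate PDGF-C, was at 7.14, 8.31, 9.26, 6.95 and 7.82 FPKM in IPF lungs 1 to 5 and at 9.53, 11.8, 10.4, 9.1 and 9.92 FPKM in sham lungs 1 to 5. Only IPF 3 entered the sham range. The log2 difference was -0.36 (SE 0.09, limma adjusted p = 0.0462), but the adjusted p ran from 0.0502 to 0.113 in 9 of the 10 fits that left out a lung. The PDGF-binding matrix protein gene Sparc (1074 ± 57.9 against 1071 ± 57.1 FPKM), the processing protease Furin, the matriptase gene St14, the endocytic co-receptor Lrp1, the neuropilin Nrp1 and the receptor-like Pdgfrl were not called, and the list had a median log2 difference of -0.09.

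Downstream of the receptors, 0 of 25 signalling genes were called by limma or voom and 4 had an unadjusted limma p under 0.05 (Nck2, Nck1, Prkca and Stat3), with a median log2 difference of 0.04. The share called over all genes was 5.85%, and 1 of the 25 was called with a mean of at least 1 FPKM (Nck2, adjusted p = 0.0489), 1 with the replicate block and 1 without IPF 5. They cover adaptors (Grb2, Shc1), phosphoinositide and phospholipase enzymes (Pik3r1, Plcg1), Src kinases and the Ras-ERK chain. The smallest p was that of Nck2, an adaptor that links receptor tyrosine kinases to actin (15.6 ± 1.99 against 12.9 ± 0.254 FPKM, log2 difference 0.27, SE 0.08, limma adjusted p = 0.0648). The groups did not overlap for 3 of the 25, against 7.29% of all genes. These were Nck2, its paralog Nck1 (16.5 ± 1.18 against 14.2 ± 0.785 FPKM, adjusted p = 0.0754) and the transcription factor Stat3 (22 ± 1.26 against 24.1 ± 1.02 FPKM, adjusted p = 0.186), and Nck1 and Stat3 were named after their values were seen. Of 8 genes that dampen receptor signalling, such as the ubiquitin ligase Cbl and the phosphatase Ptprj, 0 were called by limma or voom and 0 had an unadjusted p under 0.05, with a median log2 difference below 0.01 in size and Cblb nearest to the threshold (6.3 ± 0.979 against 7.26 ± 0.838 FPKM, log2 difference -0.21, SE 0.11, limma adjusted p = 0.326).

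The PDGF receptors belong to the class III receptor kinases with Kit, Flt3 and Csf1r. Of 7 such relatives and their ligands 1 was called, against 5.85% of all genes, and the count was 2 without IPF 5. The called gene was Csf1, the macrophage growth factor (13.4, 12.1, 12, 13 and 10.6 FPKM in IPF lungs 1 to 5 and 8.5, 9.3, 8.96, 9.08 and 10.5 FPKM in sham lungs 1 to 5). All IPF lungs were above all sham lungs, IPF 5 only just, and the log2 difference was 0.39 (SE 0.08, limma adjusted p = 0.0135). The call was lost with the replicate block (adjusted p = 0.061). Its receptor Csf1r was not called (27.1 ± 1.93 against 23.6 ± 1.27 FPKM, log2 difference 0.20, limma adjusted p = 0.0839), and neither were Kit, Kitl, Flt3, Flt3l and Il34.

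Genes of the cells that carry PDGFRα were examined beside Pdgfra. Of 11 alveolar fibroblast genes 2 were called, both higher in IPF, against 3.71% of all genes called higher, and the count ran from 1 to 4 when 1 lung was left out (4 without IPF 5). Wnt2, which encodes a Wnt ligand of lung mesenchyme, was at 12.5, 10.4, 9.57, 10.2 and 10.3 FPKM in IPF lungs 1 to 5 and at 5.78, 7.37, 7.73, 5.59 and 7.33 FPKM in sham lungs 1 to 5 (log2 difference 0.65, SE 0.11, limma adjusted p = 0.00597), with no overlap. Fgfr4, a fibroblast growth factor receptor, was at 18.2 ± 3.53 against 12.2 ± 0.962 FPKM (0.55, SE 0.12, limma adjusted p = 0.0245), and IPF 5 (13.7 FPKM) fell below sham 4 (13.9 FPKM). The Fgfr4 call was lost in 6 of the 10 fits that left out a lung. The list's median log2 difference was 0.11, and its summed level was 2561 to 2795 FPKM in IPF lungs against 1993 to 2570 FPKM in sham lungs. Most of the sum came from Inmt, Mfap4, Npnt and Ces1d, named after their values were seen, and none of them was called. The lowest sum was that of sham 1, where Inmt was at 538 FPKM. Of 7 alveolar myofibroblast genes 1 was called, the growth factor gene Fgf18 (9.48 ± 1.69 against 6.38 ± 0.945 FPKM, 0.56, SE 0.13, limma adjusted p = 0.0272), a call lost in 4 of these 10 fits, with a list median of 0.06. Of 7 adventitial fibroblast genes 0 were called by limma or voom and 0 had an unadjusted p under 0.05, with Ly6a nearest (328 ± 48.8 against 274 ± 42 FPKM, adjusted p = 0.288). The part of these cell types in the Pdgfra difference was not tested.

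Of 10 smooth muscle genes 2 were called, in opposite directions, against 5.85% of all genes, and voom called 1. The actin-binding gene Synpo2 was higher in IPF (4.76 ± 0.526 against 3.03 ± 0.343 FPKM, log2 difference 0.64, SE 0.10, limma adjusted p = 0.00522, no overlap). Smtn, which encodes the contractile protein smoothelin, was lower (15.4 ± 1.41 against 18.4 ± 0.965 FPKM, -0.26, SE 0.07, limma adjusted p = 0.0495), and this call held in only 1 of the 10 fits that left out a lung. The lowest fitted differences, chosen for naming after they were seen, were those of the contractile genes Actg2 (8.6 ± 4.8 against 13.3 ± 1.53 FPKM, -0.78, SE 0.29, limma adjusted p = 0.162) and Cnn1 (6.65 ± 4.88 against 9.15 ± 2.11 FPKM, -0.65, SE 0.36, limma adjusted p = 0.354). Actg2 was at 16.5 FPKM in IPF 3 and at 4.04 to 8.68 FPKM in the other IPF lungs, below all sham lungs (11.2 to 14.8 FPKM). Without IPF 3, 3 smooth muscle genes were called, Synpo2, Actg2 (log2 difference -1.05, limma adjusted p = 0.0161) and Cnn1 (-1.01, limma adjusted p = 0.0291). The list's median was -0.10, and its summed level was 139 to 262 FPKM in IPF lungs and 166 to 209 FPKM in sham lungs.

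Marker lists of the other cells of the lung had no gene called by limma: alveolar type 2 (0 of 6, median log2 difference 0.02), alveolar type 1 (0 of 6, -0.12), ciliated airway (0 of 7, -0.30), secretory airway (0 of 4, -0.07), macrophage (0 of 7, 0.20), platelet (0 of 5 tested, 0.36), mesothelial (0 of 5, 0.20) and liver, heart and skeletal muscle genes (0 of 6 tested, 0.56). Unadjusted limma p values under 0.05 were found for 1, 3, 0, 0, 1, 2, 1 and 0 genes of these lists in turn, and voom called 1 alveolar type 2 and 1 alveolar type 1 gene, against 5.85% called by limma over all genes. All 7 ciliated genes had a fitted difference below 0. Without IPF 3, limma called 2 ciliated, 1 secretory and 1 mesothelial gene, and other single omissions called 1 alveolar type 1 gene (without IPF 5 or sham 1), 1 platelet gene (without IPF 1) and 1 mesothelial gene (without sham 1). The replicate block called 1 macrophage and 1 platelet gene. All 6 neutrophil genes had a fitted difference above 0 (median 1.06) and 0 were called by limma or voom, while 4 had an unadjusted p under 0.05, with Mmp8 nearest (2.01 ± 0.91 against 0.93 ± 0.369 FPKM, adjusted p = 0.0924), and their summed levels overlapped (51.9 to 295 FPKM in IPF lungs, 14.5 to 71.5 FPKM in sham lungs). Platelets release PDGF protein, and their markers summed to 20.8 to 32.8 FPKM in IPF lungs and 15.8 to 26 FPKM in sham lungs.

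The genes most like each member across the 10 lungs were found by Pearson r of deviations from the group means, among 13445 genes with a mean of at least 1 FPKM. With so many genes and so few lungs the highest r is always large, so these values are a description. Pdgfra was nearest to Arhgef10, Orai2 and Pi4ka (r = 0.96 each). Pdgfrb was nearest to Tet2 and Slc6a8 (0.96 each) and Gmeb1 (0.95), and Cspg4 to the forkhead gene Foxf2, Vps52 and Castor2 (0.94 each). Among the ligands, Pdgfa was nearest to Atn1 and Rsl24d1 (0.94 each) and Srsf9 (0.93), and Pdgfb to Nrg2 (0.94), Zbtb45 (0.93) and Heatr6 (0.91). Pdgfc was nearest to Ccser1 (0.94), Amigo1 (0.91) and Slc4a4 (0.90), and Pdgfd to Kpna3 (0.95) and Kctd21 (0.90). None of the 18 pericyte markers was among these genes. So few genes were named out of 13445 that this absence was likely by chance alone, and no conclusion is drawn from it.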

How the data were processed

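Whole-lung mRNA of 10 mice (5 IPF, 5 sham) was analysed. The paper states that reads were trimmed with Fastp, aligned with HISAT2 and quantified with StringTie, and the submitters' processing notes also name Bowtie 0.12.2. The authors deposited FPKM values, 1 per gene and sample, for 54532 genes. Gene positions are those of GRCm38, since the last gene on chromosome 1 ends at 195323493, beyond that chromosome in GRCm39, which the methods name. The labels and the methods name different library kits. The deposited FPKM were whole multiples of 1 read's worth per gene and sample, within 0.1 read for values up to 1000 reads, which gave 15483046 to 19026843 reads on genes. The value of 1 read times this total was 0.975 to 1.043 of that of plain FPKM, so the authors scaled by another library size, which is not given in the sources used here.

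Genes whose mean FPKM reached 0.1 were tested on log2(FPKM + 0.1) with limma 3.58.1 in R 4.3.3 (trended variances, no covariate) and called at an adjusted p under 0.05. Fold changes of low genes are understated on this scale. The study used DESeq2, which needs counts and was not used here. Permutation tests were exact and two-sided. Alternatives were pseudocounts of 1 and 0.01, no filter or a mean of at least 1, median-of-ratios scaling, variances without a trend, a block for the replicate number, limma voom on the recovered reads and leaving out each lung. Scaling by total reads, and leaving out sham 1 and IPF 3 together, were added after seeing the data. Tables were made with Python 3.11.15, pandas 2.3.3 and scipy 1.17.1.

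The members and gene lists were chosen with earlier results of these data known. Lists were written from general knowledge. Named were the 7 members, the called genes of each list (at most 6) or the 1 gene with the smallest p, the 3 genes most like each member, and sex-linked and clock genes. Some genes that this rule or the lists hold are not reported here. Samples were grouped by title and treatment label. Raw reads were not used here.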

Additional observations from a re-analysis of the deposited data

Results flagged for a closer look

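Among 40 named genes screened in both groups of 5 lungs, 10 values lay apart from the other lungs of their group by a gap beyond Dixon's 95% critical value, and chance alone flags about 1 in 20 groups. No PDGF ligand or receptor and no Cspg4 value was among them. The adaptor Nck2 was at 19.1 FPKM in IPF 1, with the other IPF lungs at 14.3 to 15.4. Wnt2 was also highest in IPF 1, at 12.5 FPKM against 9.57 to 10.4. In IPF 3, the ciliated cell gene Ccdc39 was at 1.65 FPKM (others 0.781 to 0.908) and the macrophage gene C1qb at 33.5 FPKM (others 27 to 28.3). In IPF 5, the ubiquitin ligase Cblb was at 8.01 FPKM (others 5.62 to 6.15). IPF 5 also stood apart for 4 clock genes, with Dbp at 3.49 FPKM (others 1.74 to 2.17), Per3 at 6.87 FPKM (others 2.68 to 3.1), Tef at 39.1 FPKM (others 15.8 to 19.8) and Npas2 at 1.29 FPKM (others 3.56 to 4.03). Each of these values lay on the sham side of the other IPF lungs. In sham 1, Per3 was at 17.3 FPKM (others 13.9 to 14.1).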

How the results depend on the processing

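Of the 7 members, 2 were called under each of the pseudocounts, filters, scalings, variance settings and voom. The count was 1 to 2 when 1 lung was left out, and it was 1 without IPF 4 and without sham 2, where Pdgfra had limma adjusted p values of 0.0599 (log2 difference 0.34) and 0.0529 (0.35). Without sham 1 and IPF 3, an alternative added after seeing the data, Pdgfrb passed at 0.31 and Cspg4 did not at -0.34. The sign turned in 2 results, for Pdgfa to -0.04 without IPF 1 (single omissions -0.04 to 0.12) and for the r of Pdgfra with Pdgfrb to -0.03 without sham 4 (-0.03 to 0.61). The log2 difference of Pdgfra ran from 0.30 to 0.40. The r of Pdgfrb with Cspg4 ran from 0.85 to 0.94 over single omissions, and without sham 1 it no longer passed adjustment. Over the other lists, leaving aside the sex-linked and clock genes, 9 of 164 genes were called (5.49%, against 5.85% of all genes), 5 without a variance trend and 5 to 15 when 1 lung was left out (15 without IPF 3, 5 without IPF 4 and without sham 3). Fgfr4 and Fgf18 lost their calls in 6 and 4 of the 10 single omissions. The 2 groups use the same replicate numbers, and same-numbered lungs did not all deviate together (correlations -0.0415 to 0.166). With the replicate block, 2 members were called, with adjusted p of 0.0421 for Pdgfra and 0.0303 for Cspg4, Csf1 was lost (0.061) and Kcnj8 gained (0.027). The causes were not tested. Pdgfc rested on the fewest reads of the members, 25 to 64 per lung.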
